A study of Homo sapiens with 2 samples.

Results

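The 10 genes described here, EGR1, EGR2, EGR3, IER2, IER3, IER5, MYC, PHLDA1, SRF and KLF6, are early-response genes induced by serum and growth factors, taken without the AP-1 subunits. They were found by gene name in the deposited tables, where all 10 were listed among 20263 genes. RNA was sequenced from 2 cultures of Cal-27 cells, an established oral squamous carcinoma line of tongue origin. The first culture expressed an shRNA that targets the nuclear kinase HIPK2 and the second a scrambled shRNA, both from stably transduced constructs, and both grew in regular serum-containing medium. The labels name no stimulation step. Each group had 1 library, with 26450251 counts for HIPK2 shRNA and 28064923 counts for control shRNA, so no difference below has a replicate check and no p-value is given.

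Immediate-early genes are transcribed within minutes of a growth signal, without new protein synthesis. ERK signalling activates ternary complex factors such as ELK1, which bind with SRF at CArG boxes, the A/T-rich core of the serum response element, in the promoters of EGR1 and other early genes. Many of their mRNAs and proteins are short-lived, so in growing epithelial cells a steady-state level reflects both synthesis and decay.

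The targeted gene gives a limit on every direction below. HIPK2 had 218 counts in the library labelled HIPK2 shRNA and 110 counts in the control library, a ratio of 2.01 in CPM (depth-scaled counts, with TMM factors) with a 95% counting interval of 1.59 to 2.55, while its deposited TPM was 0.873 and 1.63. HIPK3 and HIPK1, its paralogs, had CPM ratios of 1.82 (1.55 to 2.15) and 1.34 (1.18 to 1.53), and HIPK4 had 2 counts in each library. A decrease of HIPK2 was therefore not seen in the counts, and the library is named by its label throughout. The transcript length that links its count and FPKM, a measure described below, was 13824 bases in that library and 3443 bases in the control. The 2 units of HIPK2 therefore go in opposite directions. How its reads were divided among transcripts was not tested. All 8 squamous epithelial markers checked were expressed, among them KRT5 at 1765 and 1624 TPM in the library labelled HIPK2 shRNA and the control, with TP63 at 23.1 and 20.7 TPM. CDH1 had the largest difference of the 8, with a log2 ratio of -1.07, ahead of PKP1 at -0.39, DSG3 at 0.38 and SFN at -0.36. PTPRC, CD3E, PECAM1 and PDGFRA had 0 counts in both libraries, whereas CDH5, also an endothelial marker, had 740 and 1513 counts and a log2 ratio of -0.99. CD14 and CD68 had log2 ratios of -0.49 and -0.16, and PDGFRB, COL1A1 and VWF 0.51, 0.37 and 0.17. Of the leukocyte markers 2 of 4 were expressed, with a summed 19.7 and 21.5 TPM, and of the fibroblast and endothelial markers 5 of 7, with 17.3 and 24.4 TPM. The part of these markers in the results below was not tested.

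The promoters of EGR1, SRF, EGR2 and IER5 are shown because a window of each of the first 3 holds CArG boxes, the sequence through which SRF acts on early genes and on its own gene, and IER5 is shown beside them as a gene whose window holds none. Each is the 250 bases before the RefSeq start, on GRCh38.p14, 5′ to 3′ on the gene's strand, and capitals mark CArG boxes. EGR1 is chr5:138465229-138465478 (plus strand), SRF chr6:43171019-43171268 (plus), EGR2 chr10:62816367-62816616 (minus) and IER5 chr1:181088450-181088699 (plus).
EGR1: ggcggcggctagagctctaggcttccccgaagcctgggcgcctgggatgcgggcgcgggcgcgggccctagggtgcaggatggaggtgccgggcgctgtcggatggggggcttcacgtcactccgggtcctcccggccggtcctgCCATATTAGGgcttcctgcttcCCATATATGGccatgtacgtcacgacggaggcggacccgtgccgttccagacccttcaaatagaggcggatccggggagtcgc
SRF: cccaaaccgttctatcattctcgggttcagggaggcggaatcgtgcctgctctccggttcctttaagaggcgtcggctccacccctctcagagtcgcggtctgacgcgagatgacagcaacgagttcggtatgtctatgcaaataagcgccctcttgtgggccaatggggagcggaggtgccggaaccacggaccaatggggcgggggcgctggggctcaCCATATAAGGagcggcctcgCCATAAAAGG
EGR2: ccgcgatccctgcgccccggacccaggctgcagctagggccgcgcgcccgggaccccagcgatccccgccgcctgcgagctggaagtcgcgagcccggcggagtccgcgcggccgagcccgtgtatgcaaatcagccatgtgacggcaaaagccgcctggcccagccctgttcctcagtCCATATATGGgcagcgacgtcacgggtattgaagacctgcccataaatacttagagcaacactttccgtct
IER5: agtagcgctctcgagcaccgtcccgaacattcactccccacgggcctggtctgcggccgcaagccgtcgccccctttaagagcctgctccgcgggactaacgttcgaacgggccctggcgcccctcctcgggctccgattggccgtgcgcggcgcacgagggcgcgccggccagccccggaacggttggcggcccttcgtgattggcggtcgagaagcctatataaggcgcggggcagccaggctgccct
The EGR1 window held a CArG box 105 to 96 bases and another 83 to 74 bases before the start, and the SRF window held them 30 to 21 and 10 to 1 bases before it. The EGR2 window held a single box, 71 to 62 bases before the start, with the same letters as the nearer box of EGR1. Of 35116 promoter windows of this length in the RefSeq table, 1.16% held a CArG box on either strand. The sequence GCGNGGGCG, a core bound by EGR proteins, was found once in EGR1 and once in SRF, and in 8.41% of all windows. TGACG, the core of the cAMP response element, was found 2 times in EGR1, 2 times in EGR2 and 1 time in SRF, and in 21.2% of all windows. TGANTCA, the AP-1 site, was found in none of the 4 windows and in 6.57% of all windows. The motifs were searched on both strands, and the matches of different motifs did not overlap. RefSeq windows were searched for 7 of the 10 genes. EGR3, IER3 and MYC were not searched, so whether their promoters hold a CArG box was not tested. The table holds 3 windows for EGR2 and 2 for SRF, and those not shown, 2 of EGR2 and 1 of SRF, held 0 CArG boxes. The windows of PHLDA1, IER2 and KLF6 lie partly or wholly in annotated exons and are not shown, and held no CArG box.

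In the counts, IER3 and PHLDA1 were about 2 times lower in the library labelled HIPK2 shRNA, EGR1 and SRF were lower by less, and IER2, IER5, KLF6 and MYC differed little or within counting error. In RNA of a whole culture, fewer cells with a transcript and less of it per cell cannot be told apart. Of the 8 genes that reached 1 CPM in a library, 5 were lower and 3 higher in the library labelled HIPK2 shRNA, where 50% of all expressed genes had a log2 ratio below 0. The counting interval of the CPM ratio lay below 1 for 5 of the 8, above 1 for 0 and held 1 for the other 3. Over all expressed genes it lay below 1 in 34.6% and above 1 in 32.7%, together 67.4%, so an interval that leaves out 1 is common between these libraries. The call of a difference used the log2 ratio of CPM + 1, with 2-fold (1 or -1) as a rule of size that is not a test. PHLDA1 alone of the 8 passed 2-fold lower and 0 passed 2-fold higher, where 2.87% of 11813 expressed genes passed 2-fold lower and 3.26% higher. At 1.5-fold, 2 of the 8 were lower and 0 higher, against 9.96% and 10.6% of expressed genes. The median log2 ratio of the 8 genes was -0.27, against 0.00023 over all expressed genes. In deposited TPM, which divides by length, the 2 medians were -0.16 and 0.077, and 0 of the 8 passed 2-fold in either direction, against 2.21% of expressed genes lower and 2.69% higher. EGR2 and EGR3 stayed under 1 CPM in both libraries, and over all 10 genes the median was -0.14.

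**Figure D1:**
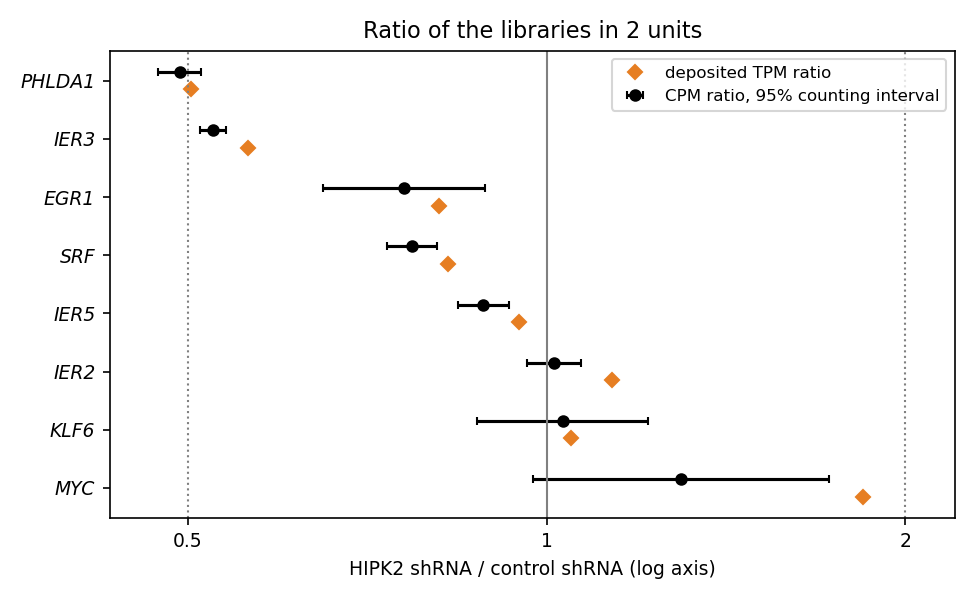
Ratio of the library labelled HIPK2 shRNA over the control for the 8 genes at 1 CPM or more (horizontal axis, log scale), as CPM ratio with its 95% counting interval (black circles) and as ratio of deposited TPM (orange diamonds). The dotted lines mark 2-fold lower and 2-fold higher and the solid line marks 1. PHLDA1 and IER3 lie near the lower dotted line in both units, and MYC has the widest gap between units, 1.30 in CPM and 1.84 in TPM.

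IER3, also known as IEX-1, encodes an early-response protein that modulates ERK signalling and apoptosis. It had 9585 counts in the library labelled HIPK2 shRNA and 18523 counts in the control, which is 354 and 675 CPM, or 1.91-fold lower (1.86 to 1.95). Only 3.46% of expressed genes had a lower log2 ratio than the -0.93 of IER3, which itself stayed under the 2-fold rule. The gene (ENSG00000137331) lies on chromosome 6 at 30743199 to 30744554, minus strand, and shares exonic bases with the antisense gene IER3-AS1.

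PHLDA1, a pleckstrin-homology-like protein linked to growth-factor signalling and apoptosis, had 3321 counts in the library labelled HIPK2 shRNA and 6840 counts in the control. Its levels were 123 and 249 CPM, or 2.03-fold lower (1.95 to 2.12). The log2 ratio of -1.02 had 2.74% of expressed genes below it. In deposited TPM it was 30.4 and 60.4, a log2 ratio of -0.97 that no longer passed 2-fold. The call also ended with upper-quartile scaling (-0.95), total counts (-0.95) and a pseudocount of 5 CPM (-0.99). The gene (ENSG00000139289, chromosome 12, 76025447 to 76033932, minus strand) shares exonic bases with 2 annotated antisense genes. The sources used here do not say whether counting used strand, so reads of antisense partners could not be told apart from those of PHLDA1 or IER3. Its relatives PHLDA2, an imprinted growth regulator, and PHLDA3, a p53-induced repressor of AKT, were also lower, with log2 ratios of -0.46 and -0.13.

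Reference genes give a measure of how far genes used as stable standards differed between these libraries. Of 11 such genes 7 were lower and 4 higher, and 0 passed 2-fold. Among all expressed genes 50% had a log2 ratio below 0, and 2.87% passed 2-fold lower and 3.26% higher. ACTB, at a log2 ratio of -0.19, is in this list and also among the SRF cytoskeletal targets below, and its value is the median of both. B2M and YWHAZ were at log2 ratios of -0.81 and -0.72, HPRT1 at -0.42 and GUSB at 0.34. The log2 ratios of CPM + 1 of EGR1, SRF, IER5, IER2, KLF6 and MYC lay within the range of these 11 genes. Those of IER3 and PHLDA1 lay below it. Without the added 1, the CPM ratio of MYC, 1.30, lay above the highest of the 11, 1.27 (GUSB). In TPM the log2 ratio of MYC, 0.72, lay above the range, whose highest value was 0.42 (GUSB).

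EGR1, the zinc-finger factor that serves as the standard readout of ERK and SRF activity, had 286 counts in the library labelled HIPK2 shRNA and 382 counts in the control. This is 10.6 and 13.9 CPM, 1.32-fold lower (1.13 to 1.54). The gene (ENSG00000120738) lies on chromosome 5 at 138465490 to 138469315, plus strand. EGR2, its relative known from hindbrain and Schwann cell development, had 0 counts in the library labelled HIPK2 shRNA, where a level of up to 0.111 CPM is allowed by that count, and 2 counts in the control. Both libraries were at or under the floor of 3 counts, so no fold is given. EGR3, known from muscle spindle and lymphocyte development, had 8 counts in the library labelled HIPK2 shRNA and 0 counts in the control, where the floor of 3 counts is 0.109 CPM. Its level was 0.296 CPM with HIPK2 shRNA, and the counting interval of its CPM ratio began at 1.73 and had no upper limit. The EGR family in these cells was thus represented almost wholly by EGR1 in both libraries. NAB1 and NAB2, corepressors that bind EGR proteins, had log2 ratios of 0.38 and 0.032.

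SRF, the transcription factor that binds the CArG box, had 2971 counts in the library labelled HIPK2 shRNA and 3909 counts in the control. This is 109.8 and 142 CPM, 1.30-fold lower (1.24 to 1.36), with a log2 ratio of -0.37 that is the same as that of EGR1 to 2 decimals. The gene (ENSG00000112658, chromosome 6, 43171299 to 43181507, plus strand) has 1 transcript in GENCODE 29. Of 5 expressed SRF cofactors 3 were higher and 2 lower, with 1 past 2-fold lower. Among all expressed genes 50% had a log2 ratio below 0, and 2.87% passed 2-fold lower. The ternary complex factor ELK3 passed 2-fold lower, with 147 and 356 counts and a CPM ratio of 0.419 (0.343 to 0.509), though in TPM its log2 ratio of -0.76 did not pass. ELK1 and ELK4 of the same family had log2 ratios of 0.037 and 0.23. The actin-regulated cofactors MKL1 and MKL2 differed in opposite directions, at 0.58 and -0.93. MYOCD, the cardiac and smooth muscle cofactor, had 0 counts in both libraries.

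Cytoskeletal targets of SRF spread widely around a median log2 ratio of -0.19. Of 19 expressed genes 8 were higher and 11 lower, with 1 past 2-fold higher and 2 past 2-fold lower. Over all expressed genes 3.26% passed 2-fold higher and 2.87% lower. FHL1, a LIM-domain protein, had 72 counts in the library labelled HIPK2 shRNA and 492 counts in the control, a CPM ratio of 0.148 (0.114 to 0.190). The focal adhesion gene VCL (vinculin) had a ratio of 0.475 (0.455 to 0.496) and a log2 ratio of -1.07, which was -0.79 in TPM. MYL9, a myosin regulatory light chain, had 999 and 249 counts, a ratio of 4.07 (3.54 to 4.69). The tropomyosin gene TPM1 had a log2 ratio of -0.74.

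IER2 and IER5, nuclear early-response proteins of 1 family, differed by less than 1.2-fold between the libraries. IER2 had 2876 counts in the library labelled HIPK2 shRNA and 2873 counts in the control, a CPM ratio of 1.01 (0.963 to 1.07). IER5, linked to the activity of the heat-shock factor HSF1, had 3043 and 3486 counts, 1.13-fold lower (1.08 to 1.19). IER2 (ENSG00000160888, chromosome 19, 13150415 to 13154908, plus strand) shares exonic bases with an antisense gene, and IER5 (ENSG00000162783, chromosome 1, 181088712 to 181092899, plus strand) with none. IER5L, a relative of IER5, was higher, with 630 and 433 counts and a log2 ratio of 0.53. The 3 IER genes thus spanned log2 ratios of -0.93 to 0.021.

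KLF6, a zinc-finger factor described as a tumour suppressor in several epithelia, had 294 counts in the library labelled HIPK2 shRNA and 289 counts in the control. This is 10.9 and 10.5 CPM, a ratio of 1.03 (0.874 to 1.22). A difference was not detectable at this depth, where the interval allows 1.14-fold lower to 1.22-fold higher. The gene (ENSG00000067082) lies on chromosome 10 at 3775996 to 3785281, minus strand.

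MYC, the growth-promoting transcription factor, had the highest ratio of the 8 genes. It had 115 counts in the library labelled HIPK2 shRNA and 90 counts in the control, which is 4.25 and 3.28 CPM. The CPM ratio of 1.30 had an interval of 0.975 to 1.73 that holds 1. In deposited TPM MYC was at 6.31 and 3.42, a ratio of 1.84, and 93.5% of expressed genes had a lower log2 ratio in that unit, against 75.3% in CPM. The gene (ENSG00000136997) lies on chromosome 8 at 127735434 to 127741434, plus strand. Its relative MYCL had 91 and 58 counts, a log2 ratio of 0.49, and MYCN had 0 counts in both libraries.

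Count and FPKM of a gene are linked by a transcript length, which differed between the libraries for MYC. For 342 genes with a single GENCODE 29 transcript, used to scale it, the implied length matched the annotated length within 2% in 98.8% of them. For MYC, with 9 annotated transcripts of 345 to 2366 bases, the implied length was 1009 bases in the library labelled HIPK2 shRNA and 1340 bases in the control. Of 11760 expressed genes with a length in both libraries, 4.46% had a lower ratio of lengths than the 0.753 of MYC, and 14.5% differed by 1.2-fold or more. EGR1, SRF and IER5, with 1 transcript each, and IER3 had the same implied length in both libraries within 1%. PHLDA1 had 6044 and 5762 bases, KLF6 4550 and 4316 bases, and IER2 2815 and 2936 bases. With 115 and 90 counts, how reads of MYC were divided among its transcripts was not tested.

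**Figure D2:**
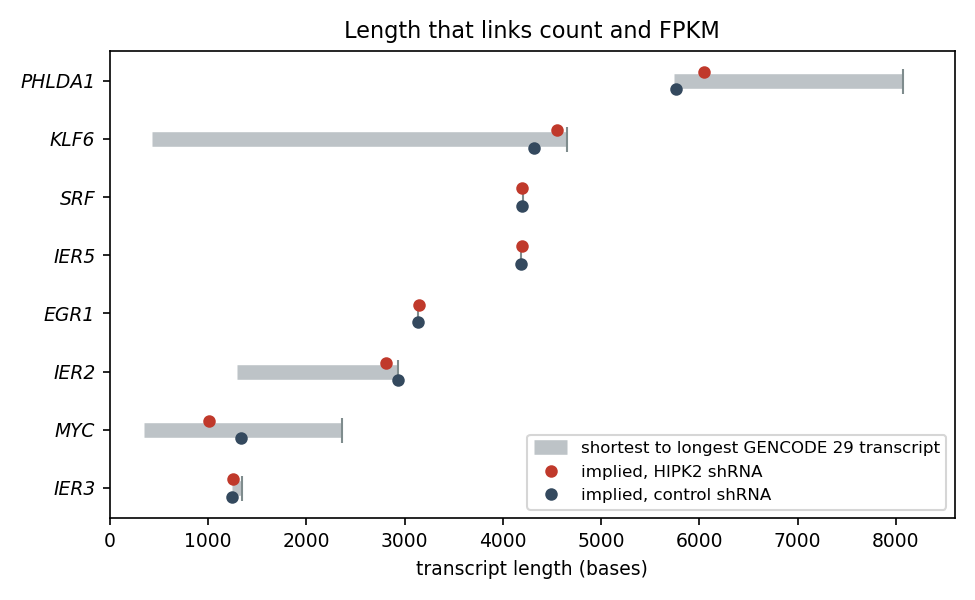
Transcript length implied by count and FPKM in the library labelled HIPK2 shRNA (red) and the control (dark blue) for the 8 genes at 1 CPM or more, beside the span of annotated GENCODE 29 transcript lengths (grey bars and ticks; horizontal axis in bases). The points of each gene nearly coincide except for MYC, at 1009 and 1340 bases, and by less for PHLDA1, KLF6 and IER2.

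Per length, IER3 stood far above the other members in both libraries. In deposited TPM it was at 425 in the library labelled HIPK2 shRNA and 757 in the control, ranking 311th and 179th of all genes. It made up 70.1% and 78.0% of the summed TPM of the 10 genes, which was 606 and 970. Without IER3 the sum was 181 and 213. Below IER3, the order in the library labelled HIPK2 shRNA was IER2 (56.5), IER5 (40.2), SRF (39.2), PHLDA1 (30.4), MYC (6.31), EGR1 (5.03), KLF6 (3.58), EGR3 (0.102) and EGR2 (0). In the control it was PHLDA1 (60.4), IER2 (49.8), SRF (47.4), IER5 (42.4), EGR1 (6.20), MYC (3.42), KLF6 (3.41), EGR2 (0.0342) and EGR3 (0). Neighbours with overlapping counting intervals were IER5 with SRF and MYC with EGR1 in the library labelled HIPK2 shRNA, and IER2 with SRF and MYC with KLF6 in the control. PHLDA1 was the fifth member in the library labelled HIPK2 shRNA and the second in the control.

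**Figure D3:**
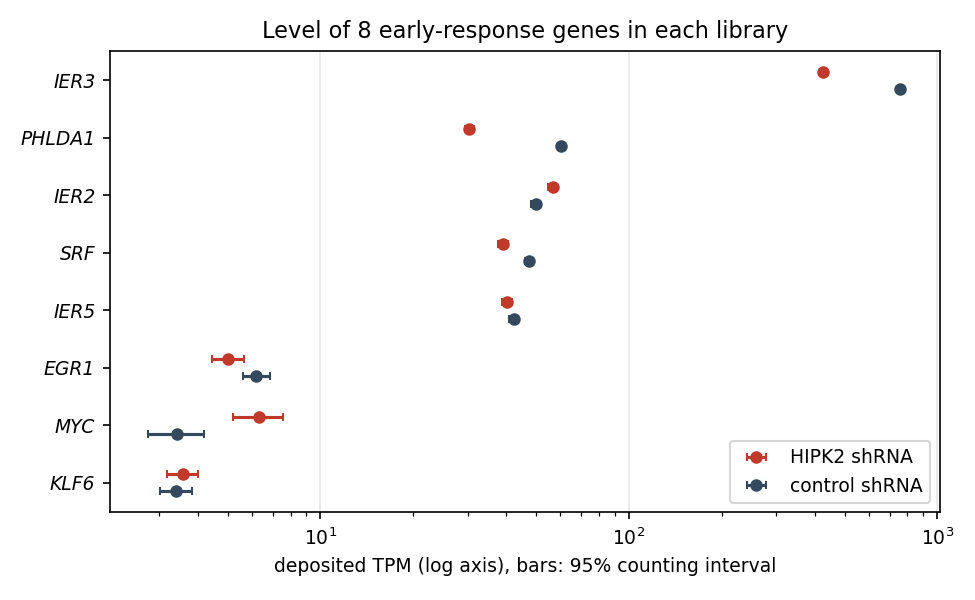
Deposited TPM (horizontal axis, log scale) of the 8 genes at 1 CPM or more in the library labelled HIPK2 shRNA (red) and the control (dark blue), with 95% counting intervals. IER3 is far above the rest, a middle group lies between 30.4 and 60.4 TPM, and EGR1, MYC and KLF6 lie below 10 TPM.

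Of other early-response genes most had lower levels in the library labelled HIPK2 shRNA, each by less than 2-fold. Of 26 expressed genes of this kind 7 were higher and 19 lower, with 0 past 2-fold and a median log2 ratio of -0.32 (-0.22 in TPM, with the same 7 and 19). Of all expressed genes, 50% had a log2 ratio below 0, and 2.87% passed 2-fold lower and 3.26% higher. PPP1R15A, which recruits a phosphatase to restart translation after stress, had 2759 counts in the library labelled HIPK2 shRNA and 4962 counts in the control, a CPM ratio of 0.564 (0.538 to 0.591). The serum- and glucocorticoid-regulated kinase gene SGK1 had a ratio of 0.580 (0.546 to 0.616). The highest ratios were those of BTG2 and ID1. BTG2, an antiproliferative factor, had 276 and 142 counts, a ratio of 1.97 (1.60 to 2.43). ID1, an inhibitor of bHLH factors, had 2702 and 1559 counts, a ratio of 1.76 (1.65 to 1.87). Of the 8 AP-1 subunits 4 were higher and 4 lower. FOSL1 passed 2-fold lower, with 6500 and 13938 counts and a log2 ratio of -1.08 (-0.96 in TPM), while ATF3 was at 0.64, FOSB at -0.62 and JUN at -0.58.

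**Figure D4:**
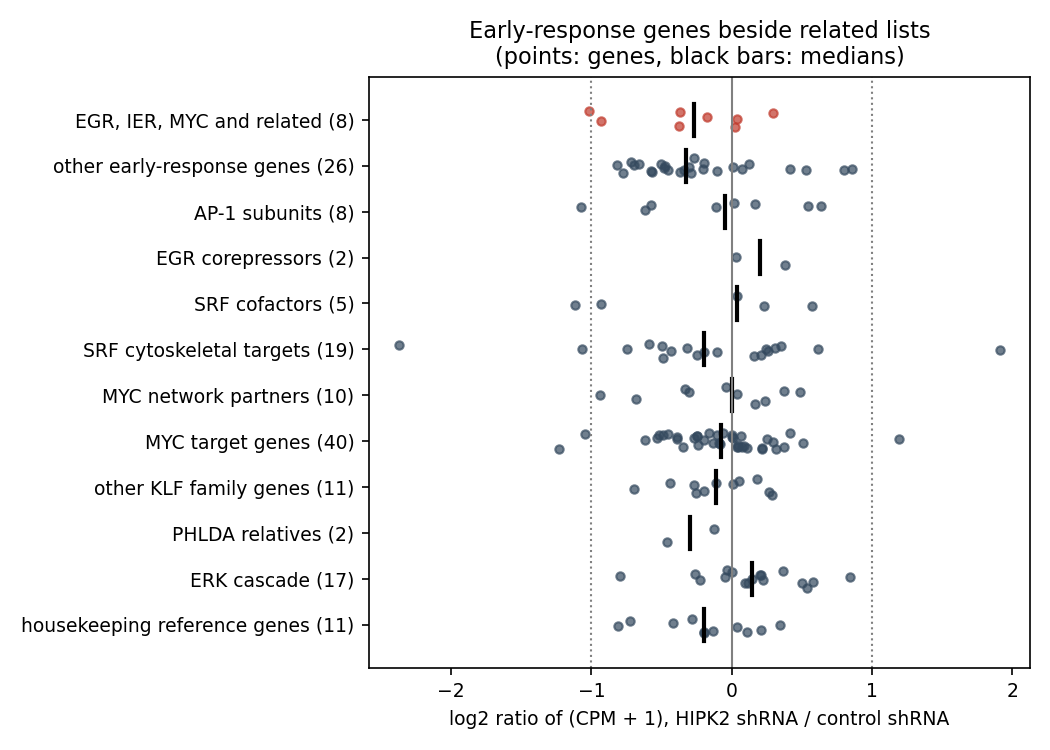
Log2 ratio of CPM + 1, the library labelled HIPK2 shRNA over the control (horizontal axis), for the expressed genes of each list, with the number of genes in brackets, black bars at the medians and dotted lines at 2-fold. The early-response genes (red) have a median of -0.27 and the further early-response genes one of -0.32, against -0.19 for 11 reference genes.

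The MYC network was evenly divided. Of 10 expressed partners and relatives 5 were higher and 5 lower, with a median log2 ratio of 0.00035. MAX, the obligate partner of MYC, had 1076 counts in the library labelled HIPK2 shRNA and 1769 counts in the control, a CPM ratio of 0.617 (0.571 to 0.666). MXD1, which competes with MYC for MAX, had 135 and 288 counts, a ratio of 0.475 (0.384 to 0.585) and a log2 ratio of -0.94. MXD4, of the same family, was at 0.38. All 40 MYC target genes were expressed, 19 higher and 21 lower, with a median of -0.075, 1 past 2-fold higher and 2 past 2-fold lower. Among all expressed genes 50% had a log2 ratio below 0, 3.26% passed 2-fold higher and 2.87% lower, so these counts are near those shares. NIP7 and POLR1B, which act in ribosome assembly and rRNA transcription, had ratios of 0.419 (0.385 to 0.455) and 0.470 (0.421 to 0.525), and UTP20, also of ribosome assembly, one of 2.50 (419 and 170 counts). In TPM 22 targets were higher and 18 lower. In that unit 0 were past 2-fold, against 2.69% of expressed genes higher and 2.21% lower.

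Some of the genes named above share exonic bases with an annotated neighbour, so their reads could be exchanged with it. Beside IER2, IER3 and PHLDA1, those overlapping a gene on the opposite strand are ELK3, ELK4, VCL, NIP7, MAX, MYCL, MYCN, MKL1, MYOCD, TPM1, NAB1, NAB2, IER5L, HIPK1, HIPK4, CDH1, CD68 and EGR3. Those overlapping a gene on the same strand are MXD1, MXD4, MKL2, PHLDA3, PDGFRA and CD68. EGR1, SRF, IER5, KLF6, MYC, EGR2, FOSL1, FHL1 and MYL9 overlap no other annotated exon in GENCODE 29.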

How the data were processed

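The submitters' processing notes name FastQC, TopHat2 2.1.1 and the GRCh38 (hg38) build. How reads were counted, on which annotation and with what strand setting is not given in the sources used. Per the file headers, each of 20263 genes has a count, a TPM and an FPKM from the authors. The deposited counts are whole numbers and not normalized, and FPKM was used only for the implied transcript length. Here counts were scaled to CPM with TMM factors (1.02 for HIPK2 shRNA, 0.977 for control shRNA; edgeR 4.0.16, R 4.3.3), with no test by edgeR, since without replicates no spread between cultures can be estimated. Genes were called expressed at 1 CPM or more in a library. Given the summed count of a gene, ratios carry 95% exact Clopper-Pearson intervals, and levels exact Poisson intervals (scipy 1.17.1). Intervals and the floor of 3 counts cover counting error only. The code for ratios, intervals and calls was run on simulated Poisson counts scaled by library totals. Such counts hold no spread between cultures and do not check the TMM factors, so they say nothing on the differences reported here. The members and lists were chosen with earlier results of these data known. Every member is named, and from each other list up to 4 expressed genes with the largest absolute log2 ratio and the HIPK family. Some others were chosen after their values were seen (KRT5, TP63, IER5L, KLF4, ELK1, ACTB and genes at 0 counts). A further leukocyte marker and a further reference gene were left out of the lists and are not reported here. With 2 libraries no gene could be named for a similar pattern. Alternatives were other scalings (DESeq2 1.42.0 size factors, upper quartile, totals), TPM, pseudocounts, filters and folds. Positions are those of the files. GENCODE 29 gave the same start and end for 9 of the 10 members, EGR2 being the exception.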

Additional observations from a re-analysis of the deposited data

How the results depend on the processing

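No replicate could be left out, since there were none. No paired analysis was possible because there was 1 library in each group. The 1 member past 2-fold lower, PHLDA1, became 0 with upper-quartile factors, total counts, deposited TPM, a pseudocount of 5 CPM or a 4-fold rule, and 2 with a 1.5-fold rule. Over all genes, the 339 lower and 385 higher calls became 515 and 676 with a pseudocount of 0.1 CPM, 161 and 124 with one of 5 CPM, and a filter at 10 CPM left 217 and 159. A 1.5-fold rule gave 1176 and 1254 calls, and a 4-fold rule 48 and 62. The median of the expressed members was negative under each alternative, from -0.37 with a filter at 10 CPM to -0.14 with no filter. For the 8 expressed members, 37 of 48 values under other scalings, units and pseudocounts stayed within the counting interval, 11 lay outside it, and 0 changed sign. For EGR2 and EGR3, with a count of 0 in a library, the interval is open-ended on the log2 scale, and their values were not judged by it. The scalings and TPM moved the median of all expressed genes by less than 0.1. Apart from rules and filters that change the threshold or the genes counted, the cause was not tested. Depth limits EGR2, EGR3 and MYC most: 1 count is worth 0.037 CPM in the library labelled HIPK2 shRNA and 0.0365 CPM in the control.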

Other observations

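The kinases and adaptors that carry growth signals to early-response genes were mostly higher in the library labelled HIPK2 shRNA. Of 17 expressed genes of the RAS and ERK cascade 12 were higher and 5 lower, with 0 past 2-fold in either direction and a median log2 ratio of 0.15 (0.25 in TPM, with 14 higher). Among all expressed genes 50% had a log2 ratio below 0 in CPM, and the median was 0.00023 (0.077 in TPM). Only 2.87% of all expressed genes passed 2-fold lower and 3.26% higher, so 0 of 17 is near that share. SOS2, an exchange factor for RAS, had 96 counts in the library labelled HIPK2 shRNA and 42 counts in the control, a CPM ratio of 2.32 (1.60 to 3.41) and a log2 ratio of 0.85. MAPK3, which encodes ERK1, had a ratio of 1.46 (1.37 to 1.55), and the ribosomal S6 kinase gene RPS6KA3 one of 1.57 (1.30 to 1.90). MAP2K1, which encodes the ERK kinase MEK1, was lower, with 1809 and 3209 counts and a ratio of 0.571 (0.539 to 0.606), and shares exonic bases with genes on the opposite strand.

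Relatives of KLF6 were divided. Of 11 expressed KLF genes 5 were higher and 6 lower, with 0 past 2-fold and a median log2 ratio of -0.11. These counts are near the shares of all expressed genes, 50% with a log2 ratio below 0, 2.87% past 2-fold lower and 3.26% higher. KLF2, a shear-stress and quiescence factor, was at -0.70 and KLF13 at -0.44, while KLF3, which shares exonic bases with a gene on the opposite strand, was at 0.28 and KLF15 at 0.27. KLF4, the epithelial differentiation factor, had 311 counts in the library labelled HIPK2 shRNA and 313 counts in the control.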
